A study of Mus musculus with 12 samples.

Results

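The genes described here encode the factors that form a blood clot and dissolve it, with their cofactors, receptors and the enzymes that modify them. They were chosen by symbol from a list of 38, and all 38 were found among the 30743 gene rows of the deposited table. The table rests on 12 whole livers of male C57BL/6J fetuses taken at 15 ± 0.5 dpc, each sequenced as polyA-selected RNA. Of these, 6 came from dams on a high-fat diet (HFD, 60 kcal% fat) and 6 from dams on the control diet (13.5 kcal% fat), and both groups of dams ate their diet for 12 to 14 weeks. How many dams gave the 12 fetuses is not said in the labels. The level used for each gene is the average log2 CPM (CPM, read counts scaled by library size to 1 common total) that the authors computed over all 12 livers. It carries no value for either diet and no spread between livers, so the comparison of diets that the study was made for is not given here, and the levels below are descriptions without a test.

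Clotting starts when tissue factor meets factor VII, runs through a cascade of serine proteases to thrombin, and ends when thrombin cuts fibrinogen into fibrin. Plasmin, cut from plasminogen, later dissolves the clot, and protein C, antithrombin and other inhibitors hold the cascade back. Hepatocytes secrete most of these proteins into plasma, whereas endothelium, macrophages, platelets and other cells make tissue factor, factor VIII, von Willebrand factor, thrombomodulin and the plasminogen activators. The fetal liver at this age holds hepatoblasts together with a large population of developing blood cells. In whole livers, fewer cells of a type and less RNA per cell cannot be told apart.

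Levels of different genes are given as CPM per kb, the average CPM divided by the length of all annotated exons of the gene (GENCODE M21; its build, GRCm38, is that of mm10). The lowest value of the table, 0.152 CPM, was held by 11091 rows (36.1%), and levels just above it rose in even steps. If the default prior count of 2 of edgeR, the authors' tool, is assumed, the lowest value puts the mean effective library at 13129748 reads. On that scale, 1 read in all 12 libraries together was worth 0.00635 CPM. Of 5453 genes estimated at 1 to 20 reads, 97.5% lay within 0.1 read of a whole number. Estimated reads below are totals over 12 livers, and their exact Poisson intervals (95%) cover counting error only.

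Of the 38 genes, 30 lay above 1 CPM (78.9%), against 45.1% of 18694 matched protein-coding rows. Their median was 11.5 CPM per kb, against 0.200 for those protein-coding rows. Among 15856 matched rows with reads, the median percentile was 84.9 by level per kb for the 36 of the 38 genes that had reads. By level per kb, Fgb, which encodes the fibrinogen Bβ chain, stood highest at percentile 99.7. F8, which encodes factor VIII, stood lowest of those with reads at percentile 15.9. By CPM the lowest of those with reads was Plaur, the gene of the urokinase receptor. It had 0.171 CPM from an estimated 2.97 reads, against 0.637 CPM and 76.3 reads for F8. Most of the 0.171 CPM is the lowest value of the table, so the last place per kb rests on gene length. Klkb1 and Plau were listed at the lowest value of the table.

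**Figure D1:**
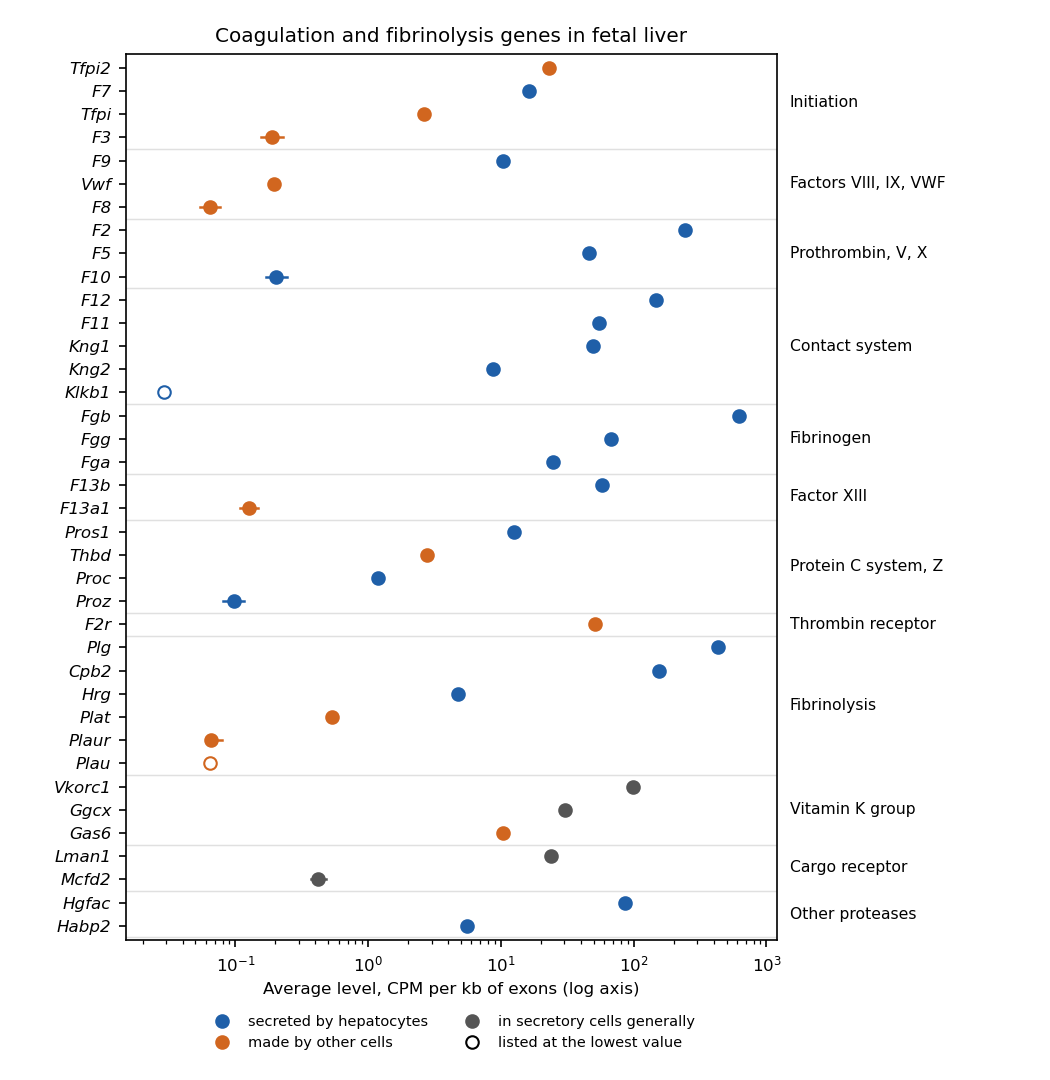
Average level of each of the 38 genes in CPM per kb of exons (log axis), grouped by role and coloured by the cells that chiefly make the protein. Bars are 95% Poisson intervals of the counting error, and open circles are the 2 genes listed at the lowest value. Fgb (626), Plg (428) and F2 (242 CPM per kb) lie farthest to the right.

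The genes were divided by textbook knowledge into 22 whose products hepatocytes secrete, 12 whose products come chiefly from other cells, and 4 that serve secretory cells generally. The hepatocyte-secreted genes had a median of 35.3 CPM per kb, and 19 of the 22 lay above 1 CPM. The genes of other cells had a median of 0.364 CPM per kb, and 7 of the 12 lay above 1 CPM. This second median depended on the length used, and was 0.589 with the longest transcript and 1.22 with coding exons, against 37.3 and 41.7 for the hepatocyte-secreted genes. Annotation differed between the classes too. The median share of exonic bases in exactly 1 annotated transcript was 63.3% for the hepatocyte-secreted genes and 44.4% for those of other cells. The part of this share, described below, in the gap between the medians was not tested. The classes overlapped widely. F10, Proz and Klkb1 of the hepatocyte class lay below 1 CPM, whereas F2r, Tfpi2 and Gas6 of the other class lay above 10 CPM per kb. The levels of the 38 genes summed to 7733 CPM, or 0.773% of the reads on this scale, and those of the 22 hepatocyte-secreted genes to 7068 CPM.

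**Figure D2:**
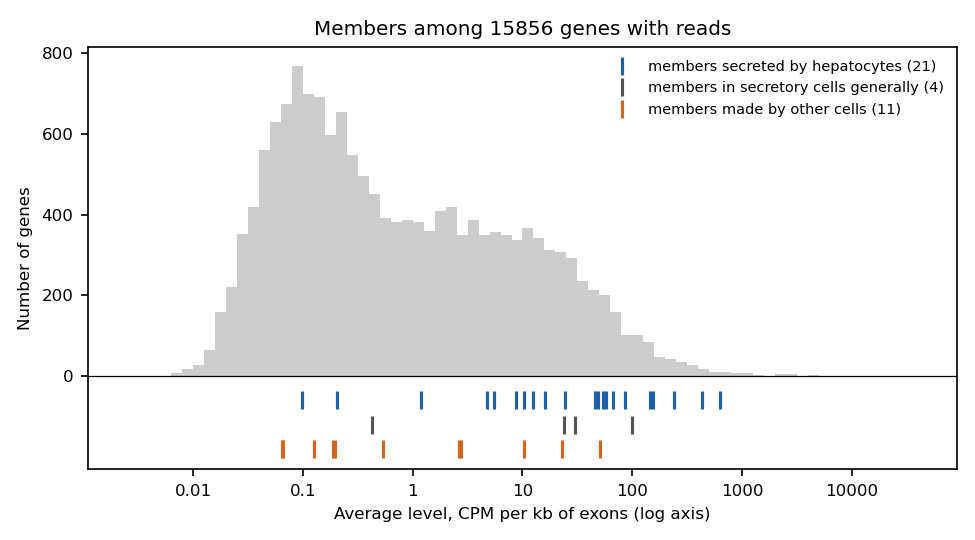
Number of genes (vertical axis) by average level in CPM per kb of exons (log axis) for 15856 genes with reads, with the 36 listed genes that have reads marked by ticks below. The hepatocyte-secreted genes (21 ticks) lie mostly right of 1 CPM per kb, and those made by other cells (11 ticks) lie at or below 50.9 CPM per kb (F2r).

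Short motifs of hepatocyte transcription factors were looked for in the promoters. RefSeq promoters on GRCm38.p6 (250 bases before to 50 after the start of a gene) were found for 30 of the 38, and none was found for Kng1, Lman1, Plat, Plau, Plg, Proc, Thbd and Vwf. A motif was counted on either strand. GTTAAT, a short form of the site of HNF1, a hepatocyte transcription factor, stood in the promoters of 8 of the 30 genes (26.7%) and in 8.24% of 27025 genes. TTGCNNAA, a site of the C/EBP factors, stood in 11 of 30 (36.7%) against 12.2%, and CAAAGT, part of the HNF4 site, in 8 of 30 (26.7%) against 16.1%. TATAAA stood in 4 of 30 (13.3%) against 15.7%. TGACCTTTG, part of a direct repeat bound by HNF4 and related receptors, stood in F7 and F9 (6.67%) against 0.544%. The other 6 searched were the full HNF1 site and a relaxed form of it, TTGCGCAA, CAAAGTCCA, TATAAAA and TATAAAT. Of these, the relaxed HNF1 site stood in Fgb, TATAAAA stood in Tfpi, and the other 4 stood in none of the 30. Several of the 11 motifs overlap one another, and a match describes the letters of this window and not a bound site.

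The promoters of the neighbouring fibrinogen genes and of F7 and F10 are printed because their levels are set side by side below. Each line holds the 250 bases before the start of the gene in RefSeq, read 5′ to 3′ on its own strand. Capitals mark GTTAAT (read as ATTAAC), TTGCNNAA on either strand, and TGACCTTTG. The windows are chr3:83049864-83050113 (minus strand) for Fgb, chr3:83025903-83026152 (plus) for Fga, chr3:83007474-83007723 (plus) for Fgg, chr8:13025784-13026033 (plus) for F7 and chr8:13037058-13037307 (plus) for F10.
Fgb: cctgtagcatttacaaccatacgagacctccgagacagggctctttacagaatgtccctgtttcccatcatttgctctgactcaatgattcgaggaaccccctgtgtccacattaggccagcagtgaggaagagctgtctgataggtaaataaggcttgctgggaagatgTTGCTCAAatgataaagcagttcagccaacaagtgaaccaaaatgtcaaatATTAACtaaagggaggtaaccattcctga
Fga: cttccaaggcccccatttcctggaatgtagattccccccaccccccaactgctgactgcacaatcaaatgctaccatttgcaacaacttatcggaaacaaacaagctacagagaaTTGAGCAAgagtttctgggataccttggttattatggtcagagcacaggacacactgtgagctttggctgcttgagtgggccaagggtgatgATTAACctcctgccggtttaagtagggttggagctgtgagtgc
Fgg: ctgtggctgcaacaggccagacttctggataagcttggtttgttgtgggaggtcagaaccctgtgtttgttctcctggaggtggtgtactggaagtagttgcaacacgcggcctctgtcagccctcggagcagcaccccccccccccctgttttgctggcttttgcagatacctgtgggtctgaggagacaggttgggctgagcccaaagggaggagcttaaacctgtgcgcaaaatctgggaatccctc
F7: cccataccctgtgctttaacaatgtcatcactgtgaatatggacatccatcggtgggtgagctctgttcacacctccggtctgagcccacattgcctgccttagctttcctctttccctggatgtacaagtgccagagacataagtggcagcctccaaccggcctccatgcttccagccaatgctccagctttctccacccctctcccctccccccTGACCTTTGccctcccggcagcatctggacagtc
F10: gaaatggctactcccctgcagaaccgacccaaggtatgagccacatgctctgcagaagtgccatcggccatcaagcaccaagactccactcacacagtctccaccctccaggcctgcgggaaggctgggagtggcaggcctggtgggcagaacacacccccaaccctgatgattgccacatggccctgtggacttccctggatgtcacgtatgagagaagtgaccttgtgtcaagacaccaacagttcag
Fgb and Fga each hold ATTAAC and a C/EBP spelling, with ATTAAC beginning 29 bases before the RefSeq start in Fgb and 43 before it in Fga. GENCODE starts Fga earlier, at 83026076, so the end of the Fga window, ATTAAC included, lies inside the gene as GENCODE gives it. For the other 4 windows both annotations give the same start. The Fgg window holds neither. F7 holds TGACCTTTG from 34 bases before its start, and the F10 window holds none of the marked motifs.

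Fibrinogen is built from equal numbers of Aα, Bβ and γ chains, encoded by Fga, Fgb and Fgg. The genes lie side by side on chromosome 3 of GRCm38, Fgg from 83007724 to 83015049, Fga from 83026076 to 83033627 and Fgb from 83040141 to 83049863. Fgb had 2385 CPM, the highest of the 38 genes, Fgg had 141 CPM and Fga 74.1 CPM. Per kb of exons this gave 626 for Fgb, 67.2 for Fgg and 24.6 for Fga, so that Fgb stood 25.4-fold above Fga and 9.31-fold above Fgg. Fgb has 1 annotated transcript, whereas Fga and Fgg have 2 each. The bases that lie in exactly 1 annotated transcript made up 44.9% of the exons of Fga and 35.8% of those of Fgg. When levels were divided by the length of these bases alone, an alternative chosen after the values were seen, Fgb stood 11.4-fold above Fga and 3.34-fold above Fgg.

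**Figure D3:**
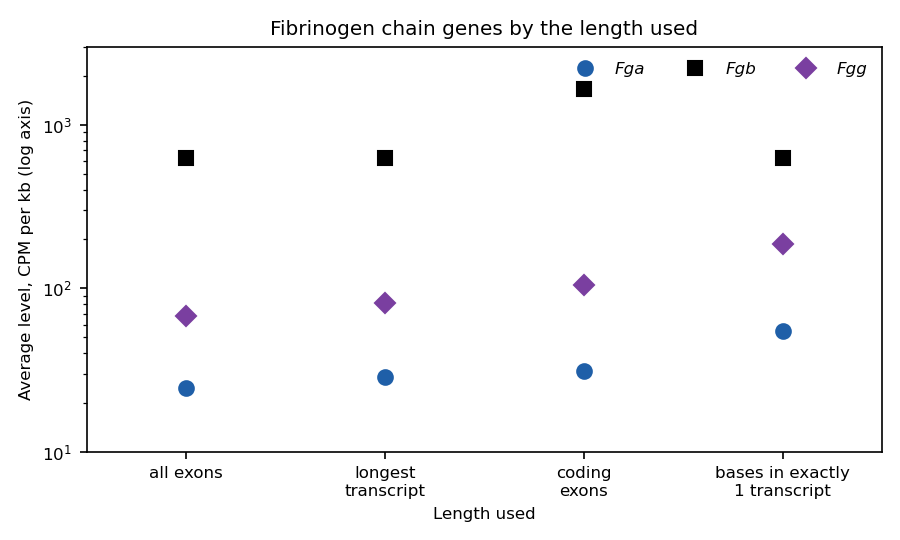
Average level in CPM per kb (log axis) of Fga, Fgb and Fgg when the level is divided by the length of all exons, the longest transcript, the coding exons or the bases in exactly 1 transcript. Fgb lies above Fgg and Fgg above Fga with each length, and Fgb is closest to the others with the last.

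The same share was set against the levels of all genes. Among 15579 protein-coding genes with several annotated transcripts, the median average log2 CPM rose with the share of exonic bases that lie in exactly 1 transcript of any gene. It was -2.39 for genes with a share under 20%, -0.72 from 20 to 40%, 0.27 from 40 to 60%, 1.47 from 60 to 80% and 3.36 from 80% upwards. Of the same genes, 37.2% were listed at the lowest value in the first of these classes and 10.1% in the last. Genes with 1 annotated transcript were not high as a class, with a median of -1.98. The 30 coagulation and fibrinolysis genes with several transcripts had medians that did not rise evenly with the share. They were 10.3 CPM for the 12 genes from 20 to 40%, 117 CPM for the 8 from 40 to 60% and 51.5 CPM for the 7 from 60 to 80%. The 2 genes from 80% upwards had a median of 74.1 CPM, and the 1 gene under 20%, Tfpi, had 14.5 CPM. The share came from a later annotation than the one the authors used, and its part in any level was not tested. Of 16 genes that every cell uses, picked after values had been seen, 12 lay above 1 CPM, with a median of 14.5 CPM per kb and Eef1a1 highest at 5951 CPM. The others lay below 1 CPM, with Ppia at 0.165 CPM. A low value of a gene below is therefore given as its value in the table and not as absence from the liver.

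**Figure D4:**
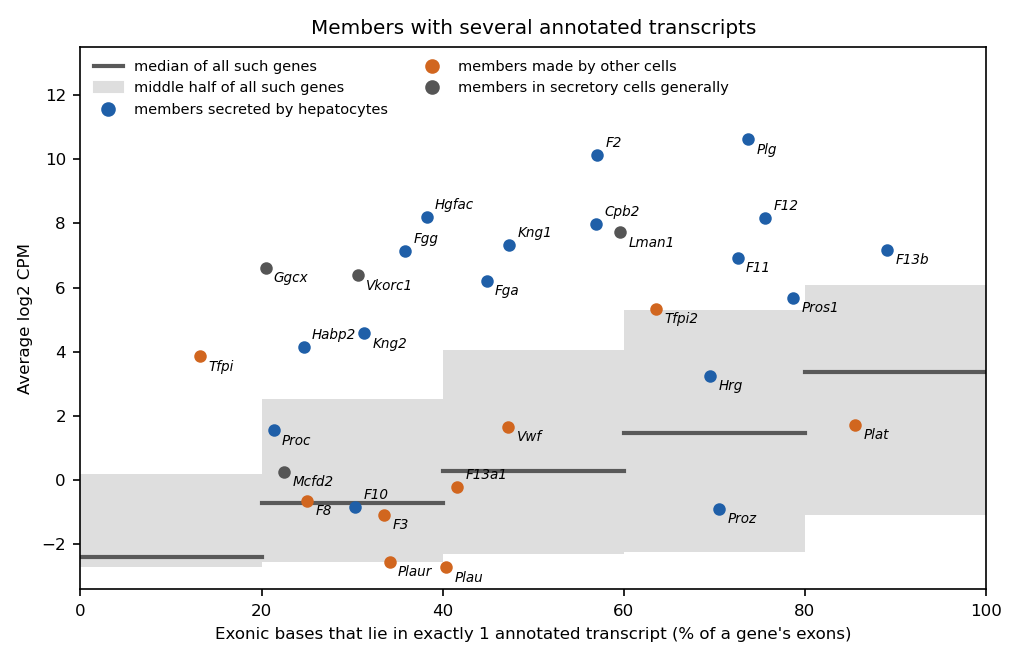
Average log2 CPM of the 30 listed genes with several annotated transcripts against the percent of their exonic bases that lie in exactly 1 transcript. Grey lines are medians of all protein-coding genes with several transcripts in classes of 20 percentage points, rising from -2.39 to 3.36, and grey boxes hold the middle 50% of those genes.

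The initiation of clotting was represented by F3, which encodes tissue factor, F7 and the inhibitors Tfpi and Tfpi2. F7, the plasma protease that tissue factor activates, had 30.0 CPM and 16.2 CPM per kb. F3 had 0.474 CPM, from an estimated 50.7 reads (37.97 to 67.1), and 4 annotated transcripts with a single-transcript share of 33.6%. Tfpi, which blocks the complex of tissue factor and factor VII, had 14.5 CPM and 2.65 CPM per kb, although only 13.2% of its exonic bases lay in exactly 1 of its 10 transcripts. Tfpi2, a relative that inhibits plasmin and matrix proteases, had 40.4 CPM and 23.1 CPM per kb, 8.74-fold above Tfpi per kb. The size of this gap depended on the length used. It was smaller with coding exons (58.6 against 13.4 CPM per kb) and with the bases in exactly 1 transcript (36.4 against 20.1).

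F8 and F9 encode the cofactor and the protease that together activate factor X, and von Willebrand factor carries factor VIII in plasma. F9 had 28.5 CPM, or 10.4 CPM per kb, with 1 annotated transcript on chromosome X from 59999464 to 60030759. F8, also on chromosome X, had 0.637 CPM from an estimated 76.3 reads (59.9 to 95.1), with a single-transcript share of 25.0%. Vwf had 3.15 CPM, but with 16064 bases of exons its level per kb was 0.196. Factor VIII and von Willebrand factor are made chiefly by endothelium, and of 8 endothelial marker genes, Pecam1 and Tek were listed at the lowest value while Cdh5 had 144 CPM and Lyve1 151 CPM.

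F2, F5 and F10 form the common end of the cascade. F2, which encodes prothrombin, had 1113.5 CPM and 242 CPM per kb, the third highest per kb of the 38 genes. F5, the cofactor that factor Xa needs to cut prothrombin, had 342 CPM and, with 7430 bases of exons, 46.0 CPM per kb. F10, the gene of that protease, had 0.557 CPM from an estimated 63.8 reads (49.3 to 81.7). F10 lies on chromosome 8 from 13037308 to 13056676, between F7, which ends 1498 bases before it, and Proz, which starts 4237 bases after it. F7 stood 79.2-fold above F10 per kb, and F10 2.10-fold above Proz. The order of F10 and Proz depended on the length used. Their CPM were close (0.557 and 0.540), and with coding exons Proz was higher, at 0.424 against 0.377 CPM per kb. F10 has 5 annotated transcripts with a single-transcript share of 30.3%, Proz has 4 with 70.5%, and F7 has 1.

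The contact system starts clotting on charged surfaces and releases bradykinin from kininogen. F12 had 286 CPM and 146 CPM per kb, and F11, whose product factor XII activates, had 122 CPM and 54.6 CPM per kb. Klkb1, which encodes plasma prekallikrein, lies 4657 bases from F11 on the same strand of chromosome 8 and was listed at the lowest value. It has 1 annotated transcript, and 42.7% of the 50-base words of that transcript also stood in Gm45753, a protein-coding gene annotated across it, so its value is uncertain. Mice carry a duplicated kininogen gene. Kng1 had 159.7 CPM and 49.1 CPM per kb, and Kng2 had 24.0 CPM and 8.76 CPM per kb, 5.61-fold lower. Of the 50-base words of Kng1 transcripts, 17.2% also stood in Kng2 and 19.4% the other way, so reads may be divided between them and the ratio is uncertain. Hrg, which encodes histidine-rich glycoprotein, lies 24197 bases from Kng2 and had 9.49 CPM and 4.76 CPM per kb.

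Factor XIII, which links fibrin strands, is a complex of A and B subunits encoded by F13a1 and F13b. F13b, made by hepatocytes, had 145 CPM and 57.2 CPM per kb, with a single-transcript share of 89.1%. F13a1, made chiefly by macrophages and megakaryocytes, had 0.856 CPM from an estimated 111 reads (91.3 to 134), with a share of 41.6%. Of 8 macrophage markers, 4 lay above 1 CPM and Adgre1, under its older symbol Emr1, was listed at the lowest value, and of 8 megakaryocyte markers, 5 lay above 1 CPM.

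The protein C system limits clotting by cutting factors V and VIII. Pros1, the cofactor protein S, had 51.5 CPM and 12.6 CPM per kb. Proc, the gene of protein C, had 2.93 CPM and 1.18 CPM per kb, with 8 annotated transcripts and a single-transcript share of 21.3%. Thbd, the thrombin receptor that directs thrombin to protein C, had 10.3 CPM and 2.76 CPM per kb, with 1 annotated transcript. Proz, whose product is the cofactor of the inhibitor encoded by Serpina10, had 0.540 CPM from an estimated 61.0 reads (46.7 to 78.4). F2r, the protease-activated receptor through which thrombin signals to cells, had 169.9 CPM and 50.9 CPM per kb, the highest per kb of the 12 genes of other cells.

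The genes of fibrinolysis covered almost the whole range of levels. Plg, which encodes plasminogen, had 1589 CPM and 428 CPM per kb, second to Fgb. Of its transcript words of 50 bases, 10.2% also stood in the overlapping gene Slc22a3. Cpb2, a carboxypeptidase that protects fibrin by removing the lysines to which plasminogen binds, had 251 CPM and 154 CPM per kb, the fourth highest. The genes of the enzymes that cut plasminogen were lower. Plat, the tissue activator, had 3.32 CPM and 0.531 CPM per kb with a single-transcript share of 85.5%. Plau, the urokinase gene, was listed at the lowest value, and Plaur, its receptor, had an estimated 2.97 reads (0.619 to 8.77). Plau and Plaur have single-transcript shares of 40.3% and 34.2%.

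Vitamin K is needed to carboxylate the glutamate residues with which several clotting proteases bind calcium and membranes. Ggcx, the carboxylase, had 98.2 CPM and 30.3 CPM per kb, and Vkorc1, which recycles vitamin K, had 83.2 CPM and, with 840 bases of exons, 99.1 CPM per kb. Of the 50-base words of Vkorc1, 44.7% also stood in Gm21974, which overlaps it on the same strand, so its value is uncertain. The 8 listed genes of carboxylated proteins had a median of 10.4 CPM per kb and ran from 242 for F2 through 16.2 for F7, 12.6 for Pros1, 10.4 for F9, 10.4 for Gas6, the ligand of the TAM receptors, and 1.18 for Proc to 0.204 for F10 and 0.0973 for Proz. F9 and Gas6 could not be ordered, since their counting intervals overlapped.

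Lman1 and Mcfd2 encode the parts of the receptor that carries factors V and VIII out of the endoplasmic reticulum. Lman1 had 212 CPM and 24.0 CPM per kb, and Mcfd2 had 1.19 CPM and 0.422 CPM per kb from an estimated 164 reads. Mcfd2 has 7 annotated transcripts with a single-transcript share of 22.5%, against 59.6% for Lman1. The proteases outside the cascade were Hgfac, which activates hepatocyte growth factor, with 295 CPM and 86.5 CPM per kb, and Habp2, which can activate factor VII, with 17.7 CPM and 5.53 CPM per kb.

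In the order of the 38 genes by level per kb, 8 of the 37 neighbouring pairs had overlapping counting intervals. They were Fga with Lman1, F9 with Gas6, Thbd with Tfpi, F10 with Vwf, Vwf with F3, F13a1 with Proz, Plaur with Plau and Plau with F8. The place of Plau and Klkb1 in this order is set by their length alone, since both were listed at the lowest value. Plaur, at 0.171 CPM, lay so close to that value, 0.152 CPM, that its place too is set mostly by its length. The spread between livers is not known, so neighbours whose counting intervals are apart are not shown to differ between animals either.

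Of 19 further genes of the pathway, 18 had a row, and 14 of these lay above 1 CPM. Their median was 3.82 CPM per kb. Serpinf2, which encodes the plasmin inhibitor, had 992 CPM per kb, above each of the 38 genes. Serpind1, the gene of heparin cofactor II, had 366 CPM per kb, and Serpinc1, the gene of antithrombin, had 125. Serpina10, the partner of protein Z, had 5.24 CPM per kb against 0.0973 for Proz. The lowest by level per kb was Adamts13, the protease that cuts von Willebrand factor, with 0.0658, and Procr, the receptor of protein C, had an estimated 7.03 reads. Serpinf2 and Serpind1 have single-transcript shares of 2.37% and 6.39%. The median level of genes with shares under 20% was 0.0901 CPM per kb.

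**Figure D5:**
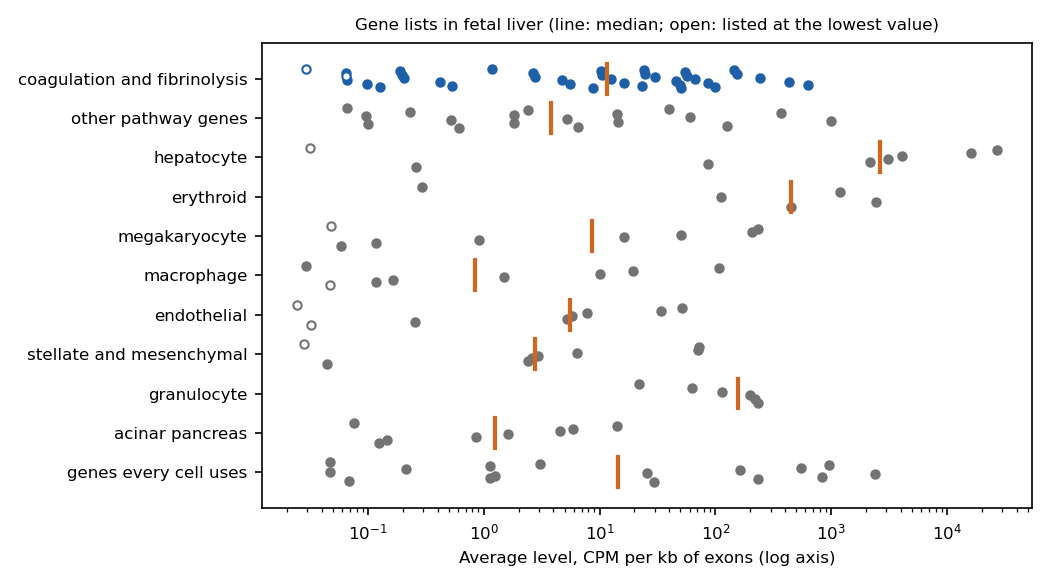
Average level in CPM per kb of exons (log axis) for each gene of the coagulation and fibrinolysis list, of the further pathway genes and of lists of cell type markers and widely used genes, with the median of each list as a line. The coagulation list (median 11.5) lies below the hepatocyte markers (median 2635), and open circles are genes listed at the lowest value.

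The liver label was checked against 8 hepatocyte markers. Alb, Afp, Ahsg, Apoa1 and Ttr had 2184 to 27034 CPM per kb, Trf had 86.4 and Dlk1 0.260. Hnf4a, a transcription factor that defines hepatocytes, was listed at the lowest value, with a single-transcript share of 9.78%.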

How the data were processed

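RNA of 12 whole fetal livers (6 control, 6 HFD) was sequenced by the authors on an Illumina HiSeq from an unstranded polyA library. Per the submitters' processing notes and the study's methods, the authors trimmed reads with cutadapt 1.2.1, mapped them to mm10 with Subread 1.3.6-p1, took gene annotation from biomaRt and used edgeR. The tool that counted reads per gene is not given in the sources used here. The deposited table gives 1 average log2 CPM per gene over all livers, computed by the authors, which was used here as their value and has no SD. Its other 8 columns of values hold fold changes, p-values and adjusted p-values of the authors' diet comparison. They were not used, and no diet test was made, since values of single livers were not analysed here.

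The members, lists, roles and motifs were chosen with earlier results of these data known. All 38 members are named; of the other lists, genes were to be named if highest, lowest or at the lowest value, and the others named were chosen after their values were seen. Some marker genes are not reported here. Average log2 CPM was turned into CPM and divided by exon length (GENCODE M21, GRCm38; 21025 rows matched by symbol, 108 symbols shared by several genes left out). Estimated reads are the CPM above the lowest value times the mean library, with exact Poisson intervals. The single-transcript share counts exonic bases covered by exactly 1 transcript of any gene on either strand. Words of 50 bases of member transcripts were searched in all GENCODE transcripts. Per-liver depth is not known. Levels just above the lowest value hold the prior count and understate ratios. The exon arithmetic and the estimate of reads were tested on simulated data. The simulated averages were built with the formula that the estimate inverts, so how the authors computed their average was not tested. Tables were handled in pandas 2.3.3 under Python 3.11.15 with numpy 2.4.6, intervals came from scipy 1.17.1, and plots from matplotlib 3.10.9.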

Additional observations from a re-analysis of the deposited data

How the results depend on the processing

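With levels above 0.5 CPM or 2 CPM counted, or with the lowest value of the table subtracted, 34, 29 and 30 of the 38 genes passed, against 30 above 1 CPM. Of the 10 genes highest per kb of exons, 6 were among the highest 10 by CPM with no length correction, where F5, Lman1, F2r and Kng1 entered, and 8 to 10 with every other length or scale tried. The median of the hepatocyte-secreted genes was 97.0 times that of the genes of other cells. It was 63.4 times with the longest transcript, 34.2 times with coding exons, 86.9 times with the bases in exactly 1 transcript, 30.3 times by CPM with no length correction (both added after the data were seen) and 102 times with the lowest value subtracted. These classes also differed in median single-transcript share (63.3% and 44.4%), whose part in the ratio was not tested. Fgb stood above Fgg, and Fgg above Fga, with each of the 4 lengths, and the ratio of Fgb to Fga ran from 11.4 to 53.0. The median percentile of the 36 genes with reads was 82.5 by CPM. Other tools, filters and leaving out single livers were not run for the diets, because values of single livers were not used. No paired analysis was possible because no result comes from a test. Depth limits the genes under 1 CPM most, with 2.97 to 111 estimated reads for those that had reads.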

Other observations

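Genes of the other cell type lists are given as levels only, and which cells these livers held was not tested. Erythroid genes were abundant, with 2461 CPM per kb for Slc4a1, the anion exchanger of the red cell membrane, and 452 for Klf1, and no row was matched for Hba-a1 and Hbb-bt. Alas2, the erythroid enzyme of heme synthesis, had 0.704 CPM, with a single-transcript share of 18.1%. All 6 granulocyte genes lay above 1 CPM, with a median of 157 CPM per kb, led by Ngp (235) and Mpo (222). Among megakaryocyte genes, Ppbp and Pf4 had 232 and 208 CPM per kb, whereas Gp1ba had an estimated 0.994 read. Among stellate and mesenchymal genes, Col3a1 and Col1a1 had 72.6 and 71.4 CPM per kb and Pdgfrb was listed at the lowest value. Of 8 acinar pancreas genes, 5 lay above 1 CPM, with Ctrb1 highest at 14.2 CPM per kb.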
